A study of Rattus norvegicus with 24 samples.

Results

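Striatal projection neurons, also called medium spiny neurons, are the GABA-releasing output cells of the striatum and make up most of its neurons. They fall into 2 classes. Direct-pathway cells carry the dopamine receptor Drd1 and the peptide precursor Pdyn, and indirect-pathway cells carry the dopamine receptor Drd2 with Adora2a, Penk and Gpr6. Both classes use the olfactory-type G protein Gnal to drive cyclic AMP and the phosphoprotein Ppp1r1b, known as DARPP-32, to relay it.

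The 9 markers described here were chosen by gene name: Ppp1r1b, Adora2a, Rgs9, Gnal, Penk, Tac1, Pdyn, Gpr6 and Foxp1. Of these, 8 have a row of that name in a table of 29539 genes, all 8 were among the 14421 genes that passed the filter on low counts, and Tac1 is not analysed here. RNA was sequenced from 24 rat (Rattus norvegicus) brain samples, 8 in each of 3 groups. The SKF group received SKF-81297, an agonist of D1-like dopamine receptors, by intraperitoneal injection on 3 days, the first 1 h after a stab wound to the forebrain. The Vehicle group carries no other label and is taken as wounded brain that received carrier, and the Normal Control group is taken as brain without wound or injection. The labels state no strain, age, sex, brain region or time of collection, and nothing says that the libraries of a group came from separate animals, so p-values measure the spread between these samples, which may be technical.

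Total counts ran from 8911339 to 12383368 per library. Normal Control 6 stood apart from the other 7 Normal Control libraries in its region markers, which bears on every comparison with that group. A score is the mean log2 CPM (counts scaled to the size of the library) of a list's tested genes. In Normal Control 6 the score of 25 other striatal markers was 6.67, against 4.17 to 5.03 in the other 7. Its thalamus score was 2.71, against 4.89 to 6.70, and its choroid plexus score was -0.03, against 4.04 to 6.83. Its cortex score of 5.45 lay inside the range of 5.30 to 5.66 in the other 7. The members' comparisons with Normal Control are given with and without this library. Some other values, such as the counts of most region lists, are given with it only.

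The start regions of 3 markers are shown because these genes move together across libraries and because Gnal is the member that passed the test below. Each runs 5′ to 3′ from 250 bases before to 50 bases after the annotated start (RefSeq, build GRCr8, which differs from the mRatBN7.2 build named for the counts), and 6 of the 9 markers matched the table. Capitals mark TGACGTCA, the cAMP response element, or TATAAA, the TATA box, searched on both strands.
Gnal, chr18:62892007-62892306, plus strand: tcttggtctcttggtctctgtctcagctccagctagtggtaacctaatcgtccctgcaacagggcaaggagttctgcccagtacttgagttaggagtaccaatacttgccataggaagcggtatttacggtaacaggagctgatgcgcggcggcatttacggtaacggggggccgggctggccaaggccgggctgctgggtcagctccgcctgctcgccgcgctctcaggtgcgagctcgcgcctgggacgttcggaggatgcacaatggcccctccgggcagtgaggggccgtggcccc
Gpr6, chr20:46075202-46075501, minus strand: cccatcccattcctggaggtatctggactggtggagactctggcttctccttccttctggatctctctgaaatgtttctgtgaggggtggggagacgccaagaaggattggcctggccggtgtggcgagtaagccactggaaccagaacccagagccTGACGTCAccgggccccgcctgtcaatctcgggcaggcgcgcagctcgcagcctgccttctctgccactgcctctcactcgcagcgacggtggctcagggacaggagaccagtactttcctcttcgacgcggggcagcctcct
Pdyn, chr3:137366454-137366753, minus strand: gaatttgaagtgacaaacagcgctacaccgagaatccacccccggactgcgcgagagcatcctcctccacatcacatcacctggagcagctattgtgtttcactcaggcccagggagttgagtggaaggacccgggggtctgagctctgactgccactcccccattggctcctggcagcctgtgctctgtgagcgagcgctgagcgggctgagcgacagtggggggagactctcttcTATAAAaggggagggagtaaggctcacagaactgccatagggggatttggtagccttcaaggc
The Gpr6 window holds the cAMP response element 93 bases before the start, and the Pdyn window a TATA box 13 bases before it. Of 33469 rat promoters of this length, 1.83% hold TGACGTCA and 14.2% hold TATAAA. The Gnal window holds neither, which says only that these letters are not in it. Of the 6 windows, only that of Gpr6 holds TGACGTCA. The windows of Rgs9 and Tac1, not shown, hold neither motif. That of Foxp1, not shown, holds TATAAA on the other strand, 39 bases before the start.

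Levels in TPM, which scales reads by transcript length and then to a fixed library total, put Ppp1r1b and Penk at the top of the order of medians in every group. In Normal Control 1, Penk at 61.4 TPM lay below Gnal at 69.3 TPM. All 8 were detected in every library, and the lowest count was 10 reads, of Gpr6 in Normal Control 1. Ppp1r1b, which inhibits protein phosphatase 1 once phosphorylated, ran from 408 to 854 TPM in SKF (median 461), from 160 to 624 in Vehicle (median 481) and from 113 to 2059 in Normal Control (median 398). Its 3 ranges overlapped, and both the highest and the lowest of all 24 libraries, Normal Control 6 and Normal Control 1, belonged to 1 group. Gpr6, an orphan receptor of indirect-pathway cells, was the lowest marker, with medians of 6.89 TPM in SKF, 8.24 in Vehicle and 9.05 in Normal Control. Between neighbours in the order of median TPM, the mean ± SD ranges parted only for Penk above Gnal and for Foxp1 above Gpr6, in SKF and in Vehicle. In Normal Control no neighbouring pair parted.

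**Figure D1:**
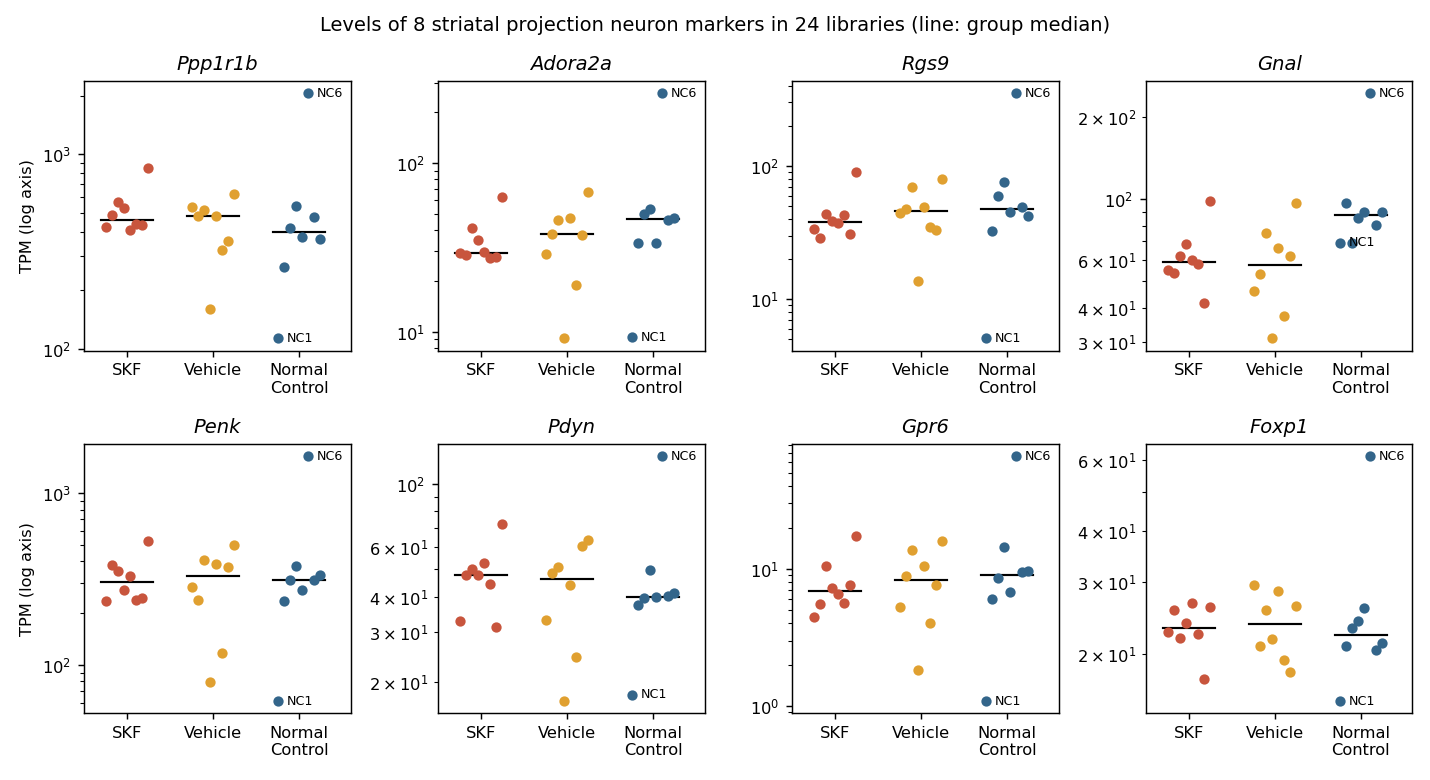
TPM (log axis) of the 8 measured markers in each library of the SKF, Vehicle and Normal Control groups (8 points each), with a line at the group median and NC1 and NC6 marking Normal Control 1 and 6. Normal Control 6 is the highest point in all 8 panels, up to 2059 TPM for Ppp1r1b.

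Vehicle against Normal Control compares wounded brain given carrier with normal brain. The fitted log2 fold changes were negative for all 8 markers, with a median of -0.85 beside -0.01 for all genes tested, but only Gnal, the G protein subunit that couples Drd1 and Adora2a to adenylyl cyclase, passed the test. The members' median was -0.096 with voom and sample weights and -0.23 on the log2(TPM + 1) scale, where the median of all genes was 0.11. In this comparison 54% of all genes were called at an adjusted p of 0.05, and 27.1% were called lower, so 1 of 8 members called lower is below the share of all genes. In bulk tissue, fewer cells of a type and less RNA per cell cannot be told apart.

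Gnal ran from 30.8 to 96.4 TPM in Vehicle (median 57.6) and from 69.3 to 244 TPM in Normal Control (median 87.4). In CPM, 7 of 8 Vehicle libraries lay below every Normal Control library, and in TPM 6 of 8 did. The log2 fold change was -0.97 ± 0.28 (SE, edgeR adjusted p = 0.00526). No other member had more than 1 Vehicle library below every Normal Control library in CPM. That count depends on Normal Control 1, the lowest Normal Control library for each of them. For Adora2a it was at 9.39 CPM and the next lowest at 32.4 CPM. For Gnal it was at 111 CPM and the next lowest at 113 CPM.

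Among the indirect-pathway markers, Adora2a, an adenosine receptor, ran from 9.11 to 67.2 TPM in Vehicle (median 37.8) and from 9.28 to 259 TPM in Normal Control (median 46.6). Its log2 fold change was -1.02 ± 0.49 (SE, edgeR adjusted p = 0.0863). Penk, the enkephalin precursor, ran from 79.2 to 496 TPM in Vehicle and from 61.4 to 1639 TPM in Normal Control, with a log2 fold change of -0.74 ± 0.48. The groups overlapped for both genes. Gpr6 had a log2 fold change of -1.004 ± 0.57, with Vehicle libraries at 1.83 to 15.9 TPM and Normal Control libraries at 1.09 to 66.5 TPM.

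Pdyn, the dynorphin precursor of direct-pathway cells, had a log2 fold change of -0.34 ± 0.32, with medians of 46.2 TPM in Vehicle and 39.9 TPM in Normal Control, so that its fitted change and its medians point in opposite directions. The same held in TPM for Ppp1r1b, Penk and Foxp1. In CPM, the ratio of medians, Vehicle over Normal Control, was 1.07 for Pdyn and 1.10 for Ppp1r1b. For Penk and Foxp1 it was 0.96 and 0.96, in the direction of their fitted changes, so for these genes the disagreement depends on the unit. Ppp1r1b had a log2 fold change of -0.58 ± 0.42, with medians of 481 TPM in Vehicle and 398 TPM in Normal Control. Penk had medians of 327 TPM in Vehicle and 311 TPM in Normal Control. Rgs9, which speeds the shut-off of G protein signals, had a log2 fold change of -0.99 ± 0.55 with medians of 45.9 TPM in Vehicle and 47.3 TPM in Normal Control. Foxp1, a transcription factor of both classes, had a log2 fold change of -0.31 ± 0.21, with medians of 23.6 TPM in Vehicle and 22.2 TPM in Normal Control. The dopamine receptors Drd1 and Drd2, measured beside the members, had log2 fold changes of -0.92 ± 0.49 and -1.03 ± 0.55. Neither passed (edgeR adjusted p = 0.119 and 0.117), and without Normal Control 6 they were at -0.093 and -0.165.

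The size of these values depended on Normal Control 6, and for 4 members so did the sign. Without it, the log2 fold changes in Vehicle against Normal Control were 0.14 for Ppp1r1b, -0.20 for Adora2a, -0.033 for Rgs9, 0.017 for Penk, 0.065 for Pdyn, -0.017 for Gpr6 and 0.024 for Foxp1. Gnal stayed lower, at -0.62 ± 0.20 (SE, edgeR adjusted p = 0.0128, with 54.2% of all genes called). Without Normal Control 1 instead, 3 members were called lower, Adora2a at -1.19, Rgs9 at -1.18 and Gnal at -1.03, beside 52.1% of all genes. Without both libraries all 8 values were negative (median -0.18), with Adora2a at -0.37, Rgs9 at -0.23 and Gpr6 at -0.21, and Gnal alone passed, at -0.65 (adjusted p = 0.0134, with 51.8% of all genes called).

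**Figure D2:**
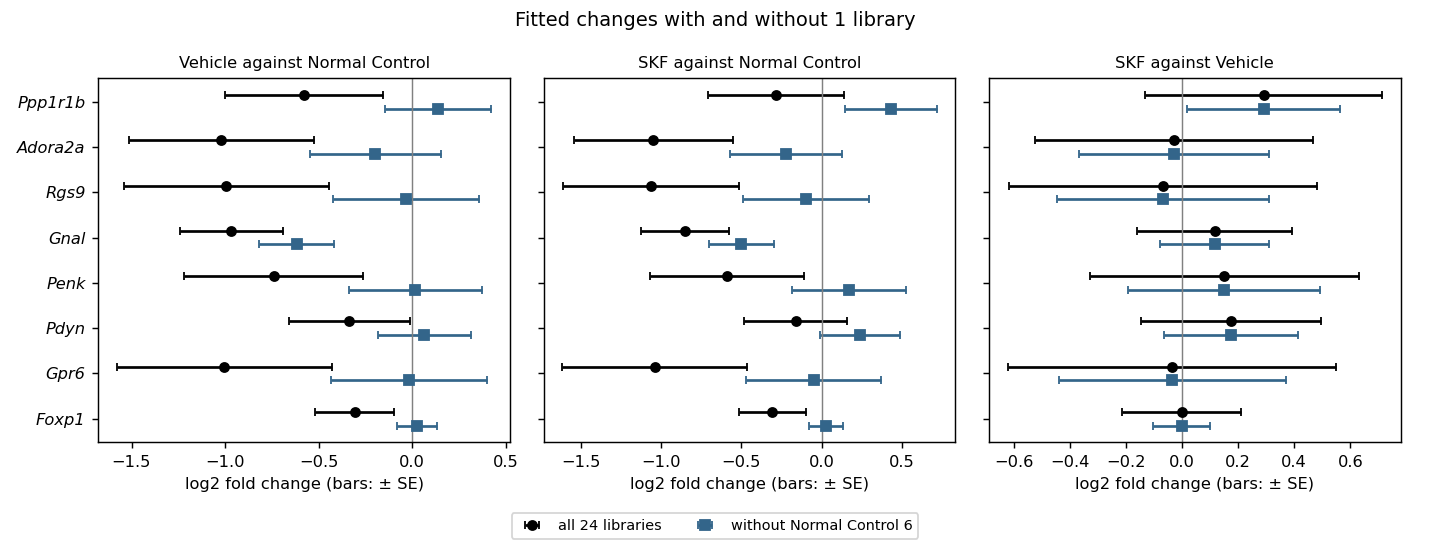
Fitted log2 fold changes with standard errors for the 8 markers in the 3 comparisons, with all 24 libraries (circles) and without Normal Control 6 (squares). Against Normal Control the circles lie left of 0, and the squares lie to their right on both sides of 0, from Gnal at -0.62 to Ppp1r1b at 0.14 in Vehicle and from Gnal at -0.50 to Ppp1r1b at 0.43 in SKF; in SKF against Vehicle, circles and squares nearly coincide.

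SKF against Normal Control compares wounded, agonist-treated brain with normal brain. It uses the same Normal Control libraries, so its values are set beside those above and are not independent of them. All 8 fitted values were again negative, with a median of -0.72 beside -0.01 for all genes, and Gnal again passed alone. The median was -0.062 with voom and sample weights and -0.15 on the log2(TPM + 1) scale. Here 50.2% of all genes were called and 24.7% were called lower, so 1 of 8 members is again below the share of all genes.

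Gnal ran from 41.7 to 98.6 TPM in SKF (median 58.6), against 69.3 to 244 TPM in Normal Control, and 7 of 8 SKF libraries lay below every Normal Control library in CPM and in TPM. The log2 fold change was -0.85 ± 0.27 (SE, edgeR adjusted p = 0.0134). Adora2a ran from 27.3 to 62.7 TPM in SKF (median 29.5), against 9.28 to 259 TPM in Normal Control (median 46.6), and 7 of 8 SKF libraries lay below the Normal Control median. Its log2 fold change was -1.05 ± 0.49 (SE, edgeR adjusted p = 0.0824). Rgs9 and Gpr6 had log2 fold changes of -1.06 and -1.04, Penk -0.59, Foxp1 -0.31, Ppp1r1b -0.29 and Pdyn -0.16.

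Without Normal Control 6, Gnal was at -0.50 (edgeR adjusted p = 0.0420, with 50.6% of all genes called), and the other 7 members ranged from -0.22 for Adora2a to 0.43 for Ppp1r1b, with none called. Without Normal Control 1, Adora2a, Rgs9 and Gnal were called lower, beside 48% of all genes. Without both libraries 6 of 8 values were negative (median -0.14), and Gnal was at -0.54 (adjusted p = 0.0411, with 47.8% called).

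SKF against Vehicle asks whether the agonist shifted these genes in wounded brain. None of the 8 members was called by edgeR, 0 of 8 had an unadjusted p under 0.05, and none was called by DESeq2. Over all genes edgeR called 0 (0%), with 715 at an unadjusted p under 0.05, and DESeq2 called 6. The members' median log2 fold change was 0.06.

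The SKF and Vehicle libraries overlapped for every member. Penk ran from 236 to 527 TPM in SKF and from 79.2 to 496 TPM in Vehicle. Rgs9 ran from 28.7 to 89.9 TPM in SKF and from 13.6 to 80.0 TPM in Vehicle, and Gpr6 from 4.42 to 17.3 TPM in SKF and from 1.83 to 15.9 TPM in Vehicle. The median TPM was lower in SKF than in Vehicle for these 3 genes and for Ppp1r1b, Adora2a and Foxp1. It was higher in SKF for Gnal and Pdyn. In CPM the ratio of medians, SKF over Vehicle, was 1.04 for Pdyn but 0.98 for Gnal, so the direction for Gnal depends on the unit. The medians were 302 TPM in SKF and 327 TPM in Vehicle for Penk, and 38.3 and 45.9 TPM for Rgs9. They were 6.89 TPM in SKF and 8.24 TPM in Vehicle for Gpr6, and 29.5 and 37.8 TPM for Adora2a. The fitted log2 fold changes of Penk (0.15) and Ppp1r1b (0.29) were positive, against the direction of their medians. Pdyn ran from 31.2 to 72.5 TPM in SKF and from 17.1 to 63.4 TPM in Vehicle. Foxp1 had the narrowest spread, from 17.3 to 26.7 TPM in SKF and from 18.0 to 29.5 TPM in Vehicle.

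The intervals show how much could have gone unseen. Gnal had a log2 fold change of 0.12, with a 95% confidence interval of -0.46 to 0.69, and Foxp1 one of -0.0008 with an interval of -0.44 to 0.44. Ppp1r1b, the relay of D1 receptor signals, was at 0.29 with an interval of -0.59 to 1.17. Penk was at 0.15 with an interval of -0.84 to 1.14, and Gpr6 had the widest interval of the members, -1.25 to 1.18. Drd1, a receptor of the agonist itself, had medians of 23.1 TPM in SKF and 23.0 TPM in Vehicle, and a log2 fold change of 0.22 with an interval of -0.80 to 1.23. These intervals do not show that the groups were alike.

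The 8 members varied together from library to library within the groups. Over the 24 libraries, after each group's mean was removed, Pearson's r of log2 CPM between pairs of members ran from 0.72 to 0.98 (28 pairs, median 0.89). Without Normal Control 1 and 6 it ran from 0.33 to 0.96 (median 0.83), and the 7 pairs with Foxp1 lay between 0.33 and 0.48. These libraries share their depth and tissue makeup, so the values are a description. The genes whose pattern was most like the members' mean were Drd1 (r = 0.98), Dach1, a transcription cofactor (0.97), Drd2 (0.97), Meis2, a homeobox transcription factor (0.97), and Rasd2, a striatal small GTPase (0.96).

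The same few libraries were at the ends for most members. Normal Control 6 ranked highest of 24 for all 8. Normal Control 1 ranked 23 or 24 for every member but Gnal, for which it ranked 10. Vehicle 4 ranked 23 or 24 for every member but Foxp1, for which it ranked 18. SKF 8 ranked 2 or 3 for all 8. Set beside the median of the other Normal Control libraries, the members' mean log2 CPM was 2.31 higher in Normal Control 6 and 1.84 lower in Normal Control 1.

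A ratio of 2 members within a library compares them in the same tissue sample. The log2 ratio of Gnal to Ppp1r1b, from CPM, was -2.21 ± 0.20 in SKF, -2.03 ± 0.37 in Vehicle and -1.30 ± 0.76 in Normal Control (SD, n = 8 each), and Normal Control 6, at -2.23, had the lowest ratio of its group. The ratio of Adora2a to Ppp1r1b was -3.71 ± 0.12 in SKF, -3.49 ± 0.41 in Vehicle and -3.04 ± 0.25 in Normal Control. Its highest SKF library, at -3.59, lay below the lowest Normal Control library, at -3.40, and here Normal Control 6, at -2.81, lay within the range of its group. Between the 2 classes, the ratio of Penk to Pdyn was 1.83 ± 0.20 in SKF, 1.77 ± 0.40 in Vehicle and 1.92 ± 0.54 in Normal Control, and that of Drd2 to Drd1 was -0.71 ± 0.28 in SKF, -0.53 ± 0.26 in Vehicle and -0.56 ± 0.55 in Normal Control. The spreads of the groups overlapped for both. These ratios were singled out after their values were seen and were not tested.

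**Figure D3:**
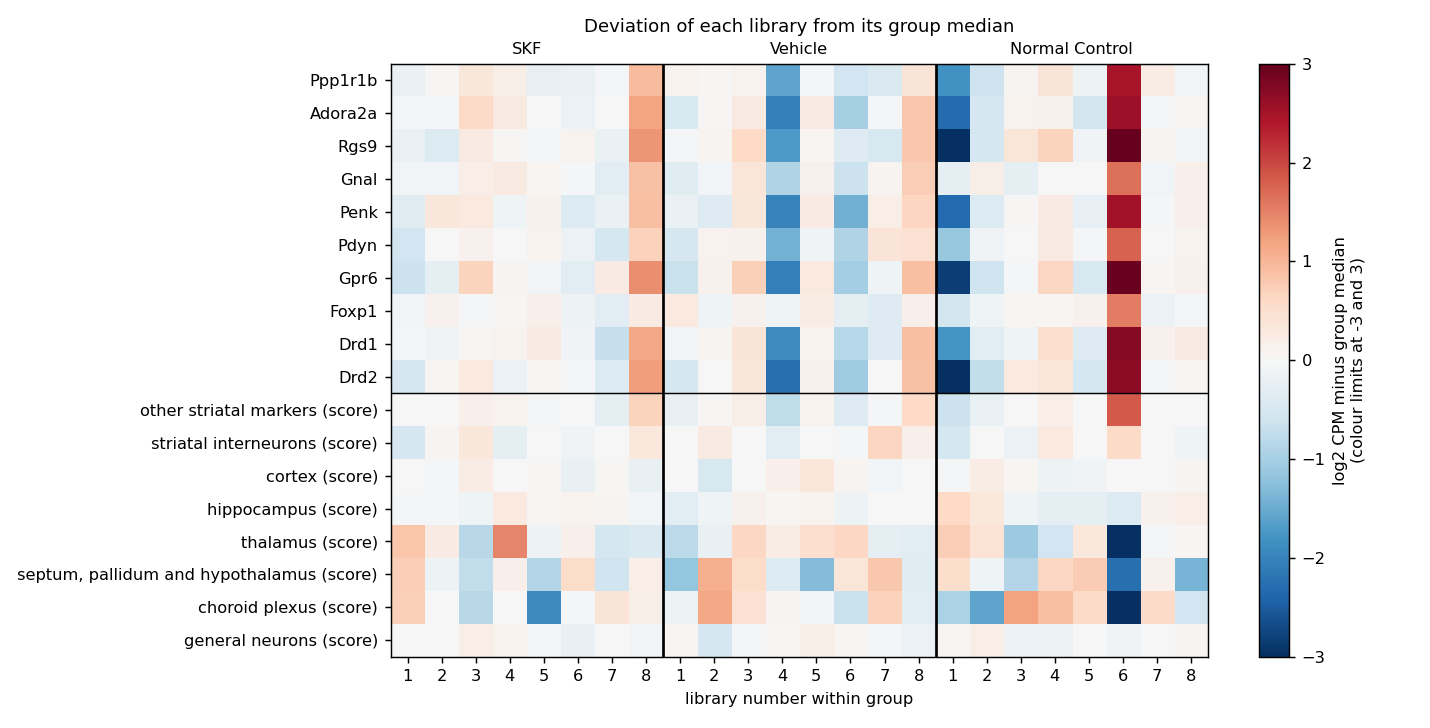
Log2 CPM minus the group median for the 8 markers, Drd1 and Drd2 (upper rows) and for scores of region and neuron lists (lower rows) in the SKF, Vehicle and Normal Control libraries. Normal Control 6 is red for every striatal row and blue for thalamus, septum and choroid plexus, and Normal Control 1 and Vehicle 4 are blue for most striatal rows.

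Ppp1r1b was set against 7 region and neuron scores within each group. Within Normal Control it was higher in libraries with a higher score of other striatal markers (r = 0.96, rho = 0.93, exact permutation adjusted p = 0.00417 and 0.0234 over 21 relations) and ran against the thalamus score (r = -0.92, rho = -0.93, exact permutation adjusted p = 0.00990 and 0.0234). Without the 2 libraries farthest from the median score, r was 0.90 and -0.87. With the other striatal markers, r was 0.88 in SKF (rho = 0.86, exact permutation adjusted p = 0.0574 and 0.0750), and 0.95 without the 2 farthest. In Vehicle r was 0.86 (rho = 0.74, exact permutation adjusted p = 0.0215 and 0.193), and 0.56 without the 2 farthest, so the relation there rests on those libraries. The hippocampus score in Normal Control gave r = -0.82 (rho = -0.74, exact permutation adjusted p = 0.0393 and 0.193), and -0.58 without the 2 farthest. The thalamus relation did not pass in SKF (r = -0.31) or in Vehicle (r = -0.29), and the difference between groups was not tested. With the cortex score r was -0.18 in SKF, -0.28 in Vehicle and -0.10 in Normal Control, and none passed. Without the 2 libraries farthest in cortex score it was -0.91 in SKF, -0.76 in Vehicle and 0.22 in Normal Control, so these values depend on those libraries. The septum, choroid plexus and general neuron scores passed in no group. How much of the members' spread reflects which tissue each sample held was not tested, and the labels name no region.

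**Figure D4:**
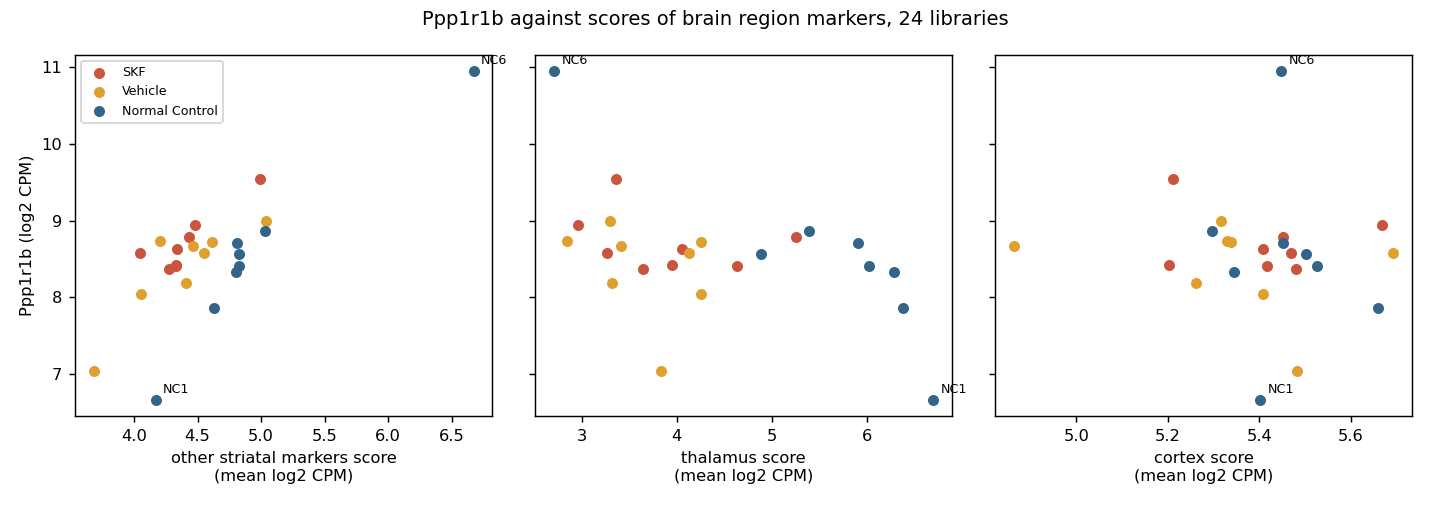
Log2 CPM of Ppp1r1b against the scores of other striatal markers, thalamus and cortex (mean log2 CPM) for 24 libraries, coloured SKF, Vehicle and Normal Control. Normal Control runs from NC6, at a thalamus score of 2.71, down to NC1, at 6.70.

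The same region lists were counted in the comparisons between groups as well. Beside these counts, 27.1% of all genes were called lower and 26.9% higher in Vehicle against Normal Control. In SKF against Normal Control 24.7% were called lower. The cortex, septum and interneuron counts in Vehicle were near the share of all genes. In Vehicle against Normal Control, 11 of 12 thalamus genes were lower (median log2 fold change -2.01), 4 of 6 hippocampus genes were lower (-0.79), and the cortex list had 3 higher and 3 lower of 13 (0.02). Among the thalamus genes, Synpo2, an actin-binding protein, was at -2.54, and among the hippocampus genes C1ql2, a secreted synaptic protein, was at -2.19. Among the cortex genes, Neurod6 was at -1.99 and Ccn2 at 0.82. Of 10 septum, pallidum and hypothalamus genes 3 were lower (-0.71), with Zic1 at -1.65, and in SKF against Normal Control 6 were lower (-1.17). Of 8 choroid plexus genes 0 passed in Vehicle against Normal Control (0.11). General neuron genes were lower in 6 of 10 (-0.28), with Tubb3, a neuronal tubulin, at -0.55. Wound-response lists moved the other way, with 7 of 7 reactive astrocyte genes higher (3.23) and 8 of 8 myeloid genes higher (2.70), while 8 of 8 oligodendrocyte genes were lower (-0.96). Of 8 striatal interneuron genes 3 were lower (-0.22), among them Sst, the somatostatin precursor, at -0.40, and Slc5a7, the choline transporter, at -0.90, which without Normal Control 6 was at -0.74 and did not pass. Without that library 1 interneuron gene was lower and 1 higher. The part of these shifts in the members' values was not tested.

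A list of other striatal markers was counted in the same way. Of its 25 tested genes, 11 were lower and 0 higher in Vehicle against Normal Control (median -0.72), and 15 were lower and 0 higher in SKF against Normal Control (median -0.71), beside 27.1% and 24.7% of all genes called lower. Isl1, a transcription factor needed for direct-pathway cells, was at -1.96 ± 0.39 in Vehicle (SE, edgeR adjusted p = 0.000132), and Six3, a transcription factor of the indirect-pathway lineage, was at -0.93 ± 0.19 (adjusted p = 0.000244). Without Normal Control 6 they were at -1.80 and -0.81 and still passed. Isl1 followed the members' mean across libraries the least of the list (r = 0.24). Without Normal Control 6 the list had 7 lower and 0 higher in Vehicle (median -0.23), beside 26.8% of all genes called lower, and 8 lower and 2 higher in SKF (median -0.25), beside 24.5%. In SKF against Vehicle 0 of 25 passed.

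Of 18 partners of Ppp1r1b, Gnal and Rgs9, 14 were lower in Vehicle against Normal Control (median -0.31), beside 27.1% of all genes. Among the lower partners were Prkaca, the kinase that phosphorylates Ppp1r1b, at -0.52, and Cdk5r1, the activator of the kinase Cdk5, at -0.73. Of 10 peptide precursors and processing enzymes, 8 were lower (median -0.62), with Cpe, the enzyme that trims peptide ends, at -0.65 and Pam, which amidates peptides, at -0.60. Without Normal Control 6, 12 partners and 8 peptide genes were lower in Vehicle, beside 26.8% of all genes. In SKF against Normal Control 9 partners were lower and 1 higher (median -0.23), and 9 peptide genes were lower (median -0.54). There 24.7% of all genes were called lower. Of 9 receptors for opioids, tachykinins and adenosine, 3 were lower and 2 higher in Vehicle against Normal Control. Oprm1, the mu opioid receptor, was at -1.70, and Tacr3, the neurokinin B receptor, at -0.72. Oprl1, the nociceptin receptor, was at 0.43 and Oprd1, the delta opioid receptor, at 0.61, a call that was lost (0.50) without Normal Control 1 and with several other single libraries left out.

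A fit with the score of the 25 other striatal markers as a covariate, with a slope for each gene, gives the group difference at an equal score. It is not the member's change minus that of the list: without the covariate the members' median in Vehicle against Normal Control was -0.85 and the list's was -0.72. The score itself had lower medians in the wounded groups, 4.34 in SKF and 4.44 in Vehicle against 4.82 in Normal Control. A positive value in this fit therefore does not by itself mean a higher level in wounded brain. With the covariate the list's own median against Normal Control was -0.02 in Vehicle and -0.06 in SKF. At an equal score 6 members were higher and Gnal lower in Vehicle against Normal Control, beside 50.9% of all genes called and 25.8% higher. Ppp1r1b was at 0.69 ± 0.16 (SE, edgeR adjusted p = 0.000947), Penk at 0.59, Pdyn at 0.46 and Gnal at -0.35 ± 0.10 (adjusted p = 0.00424). In SKF against Normal Control the same 6 members were higher, beside 47.1% of all genes called and 24.4% higher. Ppp1r1b was at 0.97 and Penk at 0.82. Gnal, at -0.22, did not pass (edgeR adjusted p = 0.0677). Foxp1 passed in neither. Without Normal Control 6 the same 6 members were higher. Beside them, 50.2% of all genes were called in Vehicle (25.2% higher) and 46.3% in SKF (23.9% higher). Gnal was then at -0.33 in Vehicle and -0.20 in SKF. Without the covariate none of these 6 members passed in either direction with all 24 libraries.

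**Figure D5:**
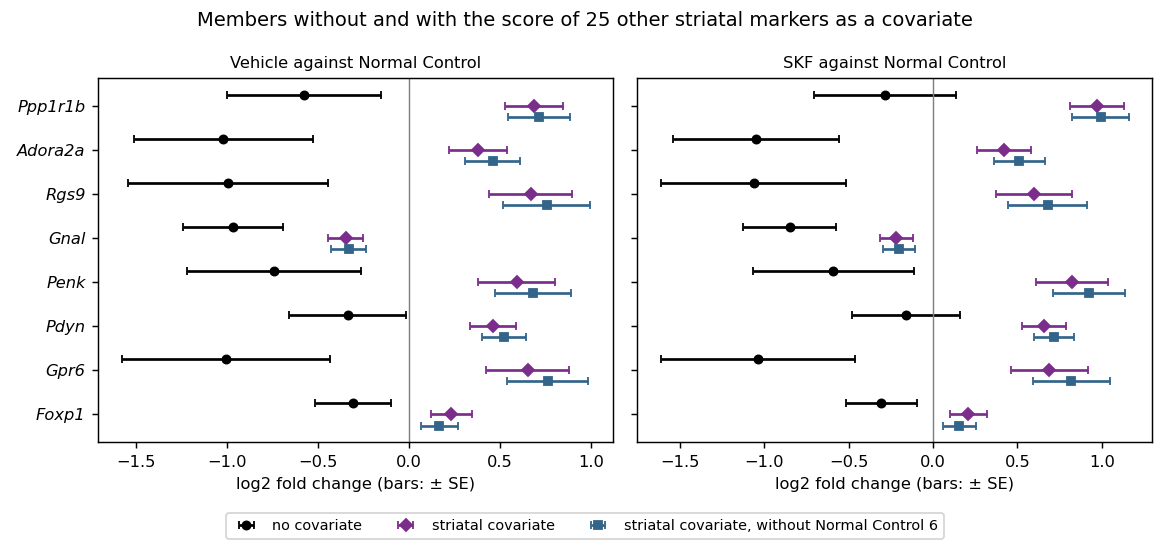
Fitted log2 fold changes with standard errors for the 8 markers against Normal Control, without a covariate (circles), with the score of 25 other striatal markers as a covariate (diamonds), and with that covariate and without Normal Control 6 (squares). With the covariate every member but Gnal lies right of 0, with Ppp1r1b at 0.69 in Vehicle and 0.97 in SKF.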

How the data were processed

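Poly(A)-selected RNA of 24 rat brain samples was sequenced from directional libraries, per the labels. The deposited files hold whole-number counts for 29539 genes and, for the same genes, TPM computed by the authors. The build is mRatBN7.2 per the submitters' processing notes, and which aligner and counter were used is not given. Groups came from the sample titles.

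The main test was the quasi-likelihood F test of edgeR 4.0.16 under R 4.3.3 (TMM factors, robust dispersion, filterByExpr by group) in 1 fit of 24 libraries, with Benjamini-Hochberg adjustment over 14421 genes and a threshold of 0.05. The biological coefficient of variation was 16.2%. TPM served for levels and for limma 3.58.1 (TPM of at least 0.5 in 8 libraries, pseudocounts 1 and 0.1). Other alternatives were DESeq2 1.42.0, RLE factors, no filter, CPM of at least 1 in 8 libraries, the 2 groups alone, voom with sample weights, the striatal covariate, the replicate number as a block and each library left out. The covariate without Normal Control 6 was chosen after seeing the data. Scores use a prior count of 2. Correlations were tested by exact permutation over 40320 orders in Python 3.11.15 (SciPy 1.17.1). The fit was tested on simulated data.

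Members and lists were chosen with earlier results of these data known. Named genes are the members, Drd1, Drd2, the 5 most like the members, and up to 2 per list and direction with the smallest adjusted p. Gng7, Gnas, Chat, Slc18a3 and Pvalb were not analysed here. Same-numbered libraries did not deviate together (r from -0.24 to 0.08), and the labels do not say that the numbers pair samples, so the main test was unpaired. These correlations cannot show that same-numbered samples shared no day or batch. No pair of libraries agreed within sampling noise.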

Additional observations from a re-analysis of the deposited data

Results flagged for a closer look

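In 4 of 30 groups of 8 libraries, 1 library lay far from its group, by the gap to its nearest neighbour over the whole range of the group on the log2 CPM scale (Dixon's test). Chance gives about 1 in 20 groups where these are independent. Here the same libraries serve genes that vary together, so that share is only a rough guide. Gnal was far highest in Normal Control 6 (422 CPM, gap 0.762), and so was Foxp1 (106 CPM, gap 0.672). Normal Control 6 was also the highest library for the other members, which were not flagged. For Adora2a it was at 281 CPM with the next at 51.8 CPM, but Normal Control 1, at 9.39 CPM, widened the range. Rgs9 was far highest in SKF 8 (103 CPM, gap 0.605), and so was Drd2 (50.1 CPM, gap 0.547).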

How the results depend on the processing

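With the striatal covariate every member but Gnal, and also Drd1 and Drd2, changed sign to positive against Normal Control. In Vehicle against Normal Control the values (log2 fold change) became Ppp1r1b 0.69, Adora2a 0.38, Rgs9 0.67, Penk 0.59, Pdyn 0.46, Gpr6 0.65, Foxp1 0.23, Drd1 0.48, Drd2 0.51, with 7 members called, and without Normal Control 6 as well they became Ppp1r1b 0.72, Adora2a 0.46, Rgs9 0.76, Penk 0.68, Pdyn 0.52, Gpr6 0.76, Foxp1 0.17, Drd1 0.55, Drd2 0.65, again with 7 called. In SKF against Normal Control they became Ppp1r1b 0.97, Adora2a 0.42, Rgs9 0.60, Penk 0.82, Pdyn 0.66, Gpr6 0.69, Foxp1 0.21, Drd1 0.74, Drd2 0.58, with 6 called, and without Normal Control 6 as well Ppp1r1b 0.99, Adora2a 0.51, Rgs9 0.68, Penk 0.92, Pdyn 0.72, Gpr6 0.82, Foxp1 0.16, Drd1 0.81, Drd2 0.73, with 6 called. These are group differences at an equal striatal score, and that score had lower medians in SKF and Vehicle than in Normal Control. Ppp1r1b in Vehicle against Normal Control was 0.10 with DESeq2, which replaced its count in Normal Control 6, and 0.019 with voom and sample weights. In SKF against Normal Control it was 0.39 with DESeq2, 0.34 with voom, 0.27 on TPM with pseudocount 1 (filtered or not), 0.27 with pseudocount 0.1, and 0.27 without Normal Control 1 and 6. Penk there was 0.13 with voom, 0.016 on TPM with pseudocount 1 (filtered or not) and 0.017 with pseudocount 0.1, and Pdyn 0.15, 0.10 and 0.11 in the same settings and 0.12 without Normal Control 1 and 6. In SKF against Vehicle, where no member passed, Adora2a was 0.043 with voom, 0.078 on TPM with pseudocount 1 (filtered or not), 0.087 with pseudocount 0.1, 0.041 with the covariate and 0.050 without Normal Control 6 as well. Gpr6 was 0.037, 0.070, 0.036 and 0.057 in the same settings except voom. Foxp1 was 0.0010 with no filter and 0.021 with voom, and Drd2 -0.0020 with RLE factors and -0.00072 with the 2 groups alone. DESeq2 called 6 genes there. The replicate block, for numbers that the labels do not describe as pairs, left 1 member called against Normal Control in each comparison and the members' median at -0.44 in Vehicle. With the block, Ppp1r1b in SKF against Normal Control was 0.032 and Drd2 in SKF against Vehicle -0.034. Leaving out 1 library at a time gave 1 to 3 members called in each comparison with Normal Control. The ranges in Vehicle against Normal Control were Ppp1r1b -0.73 to 0.14, Penk -0.91 to 0.017, Pdyn -0.46 to 0.065, Foxp1 -0.39 to 0.024. In SKF against Normal Control they were Ppp1r1b -0.44 to 0.43, Penk -0.76 to 0.17, Pdyn -0.29 to 0.24, Foxp1 -0.39 to 0.024, Drd1 -0.92 to 0.12. In SKF against Vehicle they were Adora2a -0.22 to 0.16, Rgs9 -0.33 to 0.092, Gnal -0.028 to 0.26, Penk -0.0034 to 0.30, Gpr6 -0.31 to 0.16, Foxp1 -0.049 to 0.042, Drd1 -0.0017 to 0.42, Drd2 -0.25 to 0.22. Gnal stayed negative against Normal Control in all 37 settings, from -1.11 to -0.33 in Vehicle, where all 37 passed, and from -0.99 to -0.20 in SKF, where 35 passed and both covariate fits did not. None of these settings took the score of another region as a covariate, and Gnal was not set against the region scores. The part of other tissue in the Gnal values was not tested. On the TPM scale the median of all genes was 0.11 in Vehicle and 0.09 in SKF against Normal Control. The causes of these shifts were not tested. Depth limits Gpr6 most, with 10 reads in its lowest library.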
